A study of Homo sapiens with 36 samples.

Results

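The 7 genes described here are the Fc receptor-like (FCRL) genes FCRL1, FCRL2, FCRL3, FCRL5, FCRLA and FCRLB and the inhibitory IgG receptor gene FCGR2B, out of 58302 genes counted. They were taken by symbol and matched to the Ensembl gene IDs of the count tables. The set was chosen by earlier treated-against-DMSO results of these same libraries, so the members' treated and DMSO values are given as a description. No p-value of a member is printed for treated against DMSO. Whether a fit called a member, or how many it called, describes these libraries and supports nothing further. The data are 36 RNA-seq libraries of JEKO, MINO and UPN-1, which are established lines grown from human mantle cell lymphoma, a cancer of B cells. Cells had received the vehicle DMSO or GS716054, named in the series as an agent against KDM5 histone demethylases, and were collected 24 h or 72 h later. Each of the 12 groups (line, agent and time) held 3 biological replicates per the labels, all lines were grown in the same serum-containing medium, and the dose was not given in the sources used here.

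FCRL proteins are relatives of the classical Fc receptors that are expressed mostly by B lymphocytes. FCRL1 to FCRL5 are surface receptors whose cytoplasmic tails carry tyrosine motifs of the activating (ITAM-like) or inhibitory (ITIM) kind, while FCRLA and FCRLB stay inside the cell. FCGR2B is the inhibitory Fc gamma receptor of B cells: when immune complexes bring it together with the B-cell receptor, its ITIM recruits a lipid phosphatase and dampens signalling. KDM5 enzymes remove methyl groups from lysine 4 of histone H3, a mark of active promoters.

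All members lie on chromosome 1 (GENCODE v44 positions, GRCh38) in a pair of clusters. FCRL5 (ENSG00000143297, chr1:157513377-157552515), FCRL3 (ENSG00000160856, chr1:157674321-157700769), FCRL2 (ENSG00000132704, chr1:157745733-157777132) and FCRL1 (ENSG00000163534, chr1:157794403-157820120) follow one another on the minus strand. FCGR2B (ENSG00000072694, chr1:161663143-161678654), FCRLA (ENSG00000132185, chr1:161706972-161714352) and FCRLB (ENSG00000162746, chr1:161721544-161728143) lie on the plus strand, next to the other low-affinity Fc gamma receptor genes. Exons of FCRL3 shared 6.51% of their length with a long noncoding RNA gene of the opposite strand (ENSG00000227217), and those of FCGR2B shared 7.29% with another (ENSG00000234211). FCGR2B is nearly identical to FCGR2C and FCGR2A over parts of its sequence, so reads could be split among these copies.

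The promoters of FCRL2, FCRL3 and FCGR2B are shown because these were the members called in MINO at 72 h. Each line gives the 250 bases before a RefSeq transcription start (GRCh38.p14), 5′ to 3′ on the gene's own strand, with matches to AGGAAGT or its reverse complement ACTTCCT in capitals. This is the purine-rich core of the kind bound by ETS-family factors such as PU.1, and it was chosen after the sequences were seen.
FCRL2 (chr1:157777133-157777382, minus strand): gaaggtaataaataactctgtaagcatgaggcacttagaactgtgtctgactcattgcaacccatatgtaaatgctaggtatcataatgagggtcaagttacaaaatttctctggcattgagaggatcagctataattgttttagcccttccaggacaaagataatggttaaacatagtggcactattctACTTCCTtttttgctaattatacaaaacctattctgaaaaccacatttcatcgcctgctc
FCRL3 (chr1:157700770-157701019, minus strand): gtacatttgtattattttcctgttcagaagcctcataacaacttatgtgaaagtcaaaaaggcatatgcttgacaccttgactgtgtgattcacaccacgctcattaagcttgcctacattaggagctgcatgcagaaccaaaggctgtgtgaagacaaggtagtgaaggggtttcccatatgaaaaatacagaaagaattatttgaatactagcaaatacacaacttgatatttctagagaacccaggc
FCGR2B (chr1:161662893-161663142, plus strand): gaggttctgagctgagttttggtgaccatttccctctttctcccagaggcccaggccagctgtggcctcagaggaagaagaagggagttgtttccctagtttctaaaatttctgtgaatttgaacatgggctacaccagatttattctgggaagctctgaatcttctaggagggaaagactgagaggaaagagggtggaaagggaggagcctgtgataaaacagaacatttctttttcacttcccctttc
The FCRL2 stretch held 1 match, and the FCRL3 and FCGR2B stretches held none of these letters. FCGR2B has a further RefSeq start upstream, whose stretch (chr1:161646993-161647242) is not shown and held none either.

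Over windows of 300 bases (250 before to 50 after the start), the motif was found in 4 of the members' 10 windows, 1 window each of 4 genes, and in 8.24% of all 35116 RefSeq promoter windows. Since the motif was chosen after the members' sequences were seen, nothing is read from the difference between these shares. The matches, with the bases around them, are set side by side because all 6 ran in the same direction, with ACTTCCT on the gene's own strand.
FCRL1, 217 bases before the start: tttagaaaACTTCCTttgaaatacctg
FCRL1, 16 bases before the start: cgatatcaACTTCCTcaaacctctgat
FCRL2, 60 bases before the start: actattctACTTCCTtttttgctaatt
FCRL5, 151 bases before the start: cttcagatACTTCCTtcagggtaattt
FCRL5, 18 bases before the start: gtactcccACTTCCTtttttcaattca
FCRLA, 44 bases before the start: ttaaatttACTTCCTcttttctaatct
The octamer ATGCAAAT, a motif of many B-cell promoters, was searched on both strands as well. It was found in 1 of the 10 windows, that of FCRLB, from 65 to 58 bases before its most upstream RefSeq start, and in 1.77% of all windows. The members' windows held 0 to 5 CpG dinucleotides, against a median of 14 over all windows.

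**Figure D1:**
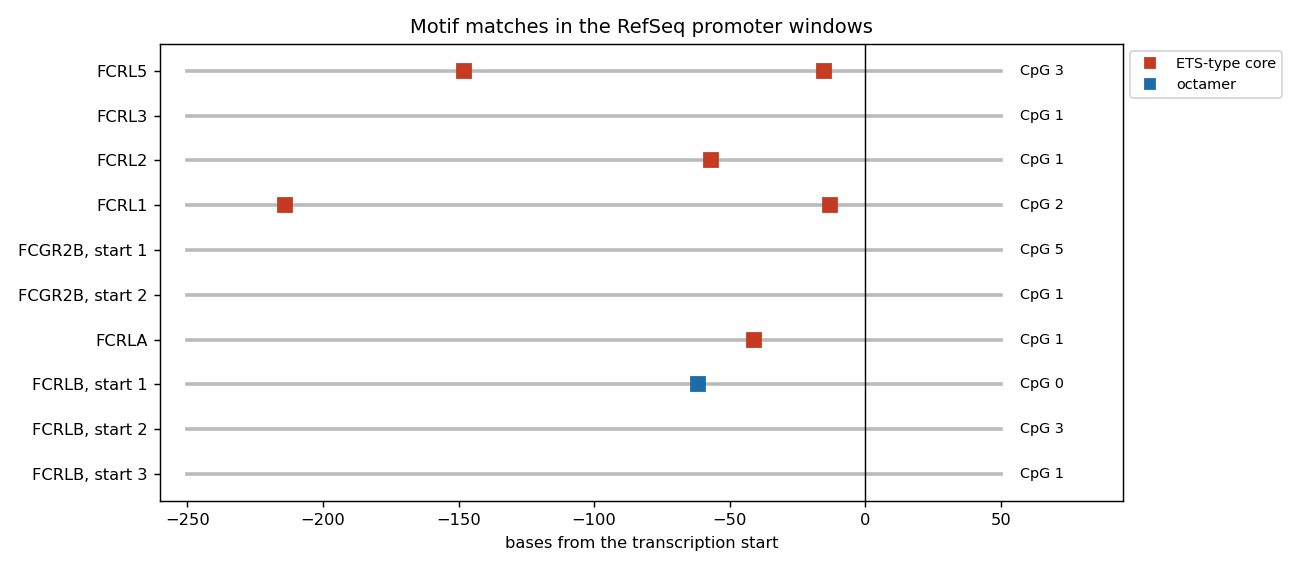
Positions of motif matches in the 10 RefSeq promoter windows of the 7 genes, in bases from the transcription start (grey bars, 250 bases before to 50 after), with the number of CpG dinucleotides at the right. Red squares mark the ETS-type core and lie in the windows of FCRL1, FCRL2, FCRL5 and FCRLA, and the blue square marks the octamer in a window of FCRLB.

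Libraries held 8784815 to 14970876 reads in genes (median 11926903), and a count of 0 allowed up to 0.196 to 0.353 CPM (reads relative to the TMM-scaled size of the library, as counts per mega-read, the unit of all levels below), which covers counting error only. B-cell markers were expressed in every library (MS4A1 at 195 to 1780 CPM, CD79A at 290 to 2630 CPM), as were the mantle cell lymphoma genes CCND1 (1210 to 3090 CPM) and SOX11 (63 to 360 CPM). Of 5 T-cell markers, CD2 was at 0 in all 36 libraries, CD3D, CD3E and CD3G reached at most 5.71 CPM, and CD247 was 52.4 to 99.4 CPM in JEKO, 9.75 to 32.4 CPM in UPN-1 and at most 1.41 CPM in MINO. The 4 NK-cell markers reached at most 1 CPM, rounded, in any library. Of the MINO libraries, DMSO replicate 2 at 72 h stood apart from its group in several members: FCRL1 was 3.00 CPM against 8.23 and 9.48 CPM, and FCGR2B was 9.21 CPM against 17.7 and 14.4 CPM.

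The 7 genes covered a wide range of levels. Per kilobase of exon, FCRLA was the highest member in every DMSO group, with means of 109 to 193 CPM per kb. FCGR2B spanned 1.82 to 7.36 and FCRL5 1.73 to 15.4 CPM per kb, and FCRL3 was the lowest in every DMSO group, at 0.0255 to 0.534 CPM per kb. FCRL1, FCRL2 and FCRLB had means between 0.217 and 2.92 CPM per kb.

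**Figure D2:**
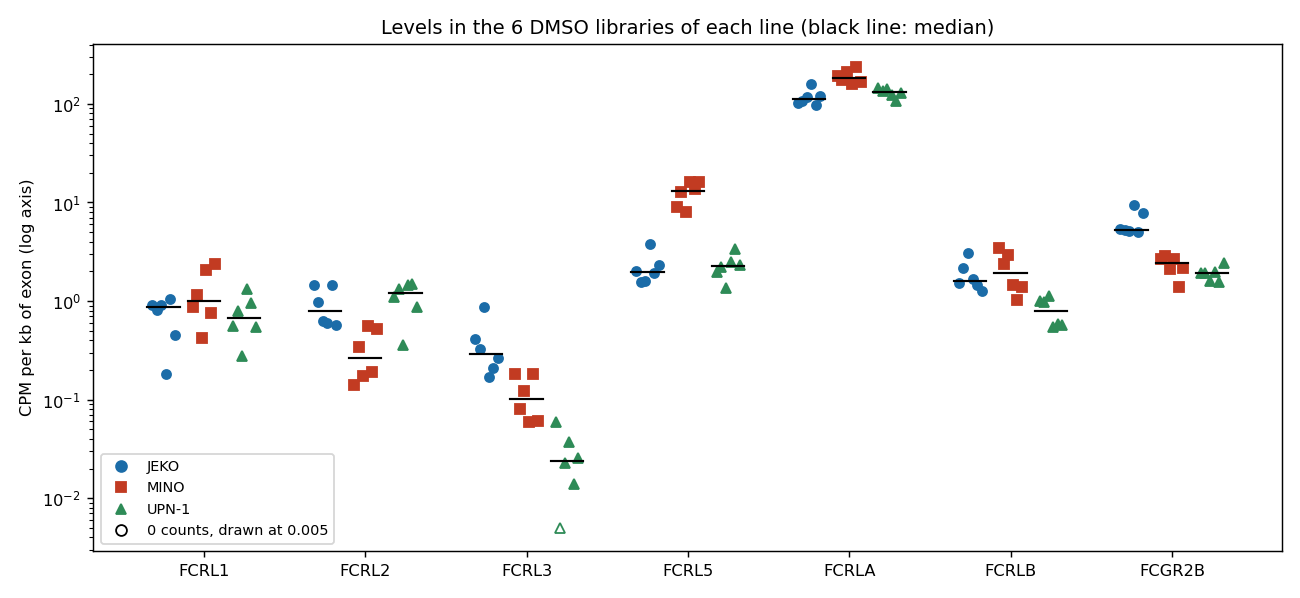
CPM per kilobase of exon (log axis) of each gene in the 6 DMSO libraries of JEKO (circles), MINO (squares) and UPN-1 (triangles), with the median as a black line and 1 library with 0 counts as an open symbol at 0.005. FCRLA lies above all other members, FCRL5 is higher in MINO than in the other lines, and FCGR2B is highest in JEKO.

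The lines differed in which members they expressed, a comparison of DMSO libraries only (means of 24 h and 72 h, edgeR's quasi-likelihood test over 36 libraries, Benjamini-Hochberg adjusted over 17980 genes). Between MINO and JEKO, 5 of 7 members passed the threshold of 0.05, where 62.6% of all genes tested did. Between UPN-1 and JEKO 3 of 7 passed (62.1% of all genes), and between UPN-1 and MINO 5 of 7 (57.7% of all genes). With 7 genes, nothing particular to the members is read from these shares. The DMSO libraries were part of the data known when the members were chosen. The members' p-values between lines and between times therefore describe these libraries only.

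FCRL5, a receptor of memory and plasma-lineage B cells that binds IgG, marked MINO. Its DMSO libraries at 24 h held 111, 157 and 99.3 CPM in MINO, 25.3, 19.3 and 20.0 CPM in JEKO and 24.6, 27.2 and 16.8 CPM in UPN-1. The MINO libraries were above all others at both times. FCRL5 was higher in MINO than in JEKO by 2.51 on the log2 scale (SE 0.226, edgeR adjusted p 2.89e-11) and lower in UPN-1 than in MINO (-2.46, SE 0.226, edgeR adjusted p 5.53e-11). UPN-1 and JEKO differed by 0.05 (SE 0.221, edgeR adjusted p 0.853).

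FCRLA, an intracellular protein that binds immunoglobulin in B cells, was 525 to 775 CPM in the 6 MINO DMSO libraries, 322 to 520 CPM in those of JEKO and 353 to 476 CPM in those of UPN-1. It was higher in MINO than in JEKO by 0.70 (SE 0.12, edgeR adjusted p 6.79e-06), and lower in UPN-1 than in MINO (-0.55, SE 0.12, edgeR adjusted p 0.000202). FCRLB, its close relative, was lower in UPN-1 than in JEKO (-1.24, SE 0.248, edgeR adjusted p 6.96e-05) and than in MINO (-1.34, SE 0.249, edgeR adjusted p 2.81e-05).

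FCGR2B was highest in JEKO, where the 6 DMSO libraries held 33.1 to 62.0 CPM. The MINO libraries held 9.21 to 19.1 CPM and the UPN-1 libraries 10.3 to 16.2 CPM, so those of JEKO did not overlap with either. The log2 difference was -1.43 for MINO against JEKO (SE 0.149, edgeR adjusted p 7.15e-10) and -1.71 for UPN-1 against JEKO (SE 0.151, edgeR adjusted p 2.24e-11). Between UPN-1 and MINO it was -0.28 (SE 0.152, edgeR adjusted p 0.118), and -0.38 (edgeR adjusted p 0.026) without MINO DMSO replicate 2 of 72 h.

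Of the low members, FCRL2 was lower in MINO than in JEKO (-1.59, SE 0.363, edgeR adjusted p 0.000319) and higher in UPN-1 than in MINO (1.79, SE 0.363, edgeR adjusted p 8.68e-05). FCRL3 was highest in JEKO DMSO cells (15 to 67 counts per library), low in MINO (5 to 11 counts) and at 0 to 4 counts in UPN-1. It was lower than in JEKO by -1.62 in MINO (SE 0.426, edgeR adjusted p 0.00146) and by -3.57 in UPN-1 (SE 0.524, edgeR adjusted p 5.89e-07), and UPN-1 was lower than MINO (-1.96, SE 0.592, edgeR adjusted p 0.00537). With the 72 h groups alone, FCRL2 (-1.0, edgeR adjusted p 0.0824) and FCRL3 (-1.16, edgeR adjusted p 0.116) did not pass between MINO and JEKO, nor FCRL3 between UPN-1 and MINO (-1.81, edgeR adjusted p 0.0795). FCRL1, a B-cell receptor with activating motifs, passed in none of the 3 contrasts, with log2 differences of 0.77, 0.01 and -0.76, although the first and the last passed when certain single libraries were left out, MINO DMSO replicate 2 of 72 h among them (0.95 and -0.93). Both also passed with no low-count filter (edgeR adjusted p 0.00516 and 0.00835). Between MINO and JEKO, FCRL1 differed by 1.65 in the 72 h groups alone (edgeR adjusted p 0.00667) and by -0.11 in the 24 h groups alone (edgeR adjusted p 0.883).

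Culture time alone was compared in DMSO cells, 72 h against 24 h. In JEKO, 1 of 7 members passed, where 31.7% of all genes did: FCRL3 was 2.68, 2.08 and 5.56 CPM at 24 h and 1.09, 1.34 and 1.70 CPM at 72 h, a log2 difference of -1.31 (SE 0.39, edgeR adjusted p 0.0211). The libraries of the 2 times did not overlap, but the call was lost without replicate 3 of 24 h, which was the high one (-0.78, edgeR adjusted p 0.157), or without replicates 1 (-1.16, edgeR adjusted p 0.0741) or 2 (-1.28, edgeR adjusted p 0.0503) of 72 h. In MINO 0 of 7 passed edgeR's test (0.0932% of all genes), 3 had an unadjusted p under 0.05 and DESeq2 called 1, FCRLB. In UPN-1 0 of 6 tested passed (1.47% of all genes), 2 had an unadjusted p under 0.05 and DESeq2 called 0. Here and below, counts of members by unadjusted p or by DESeq2 stand without a share of all genes. Nothing particular to the members is read from those counts.

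FCRL5 and FCRLB had differences of the same sign in each line over that time. FCRL5 differed by 0.63 (SE 0.368) in JEKO, 0.65 (SE 0.215) in MINO and 0.58 (SE 0.228) in UPN-1. FCRLB differed by -0.62 (SE 0.282), -1.16 (SE 0.331) and -0.86 (SE 0.388) in the same order. None of these 6 values passed the threshold with edgeR. In a fit with the replicate number as a replicate block, FCRL5 passed in MINO (0.69, edgeR adjusted p 0.0271) and UPN-1 (0.59, edgeR adjusted p 0.00821) and FCRLB in MINO (-1.17, edgeR adjusted p 0.0321). The replicate numbers did not pair libraries across times (correlations below), so nothing is read from these block calls.

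**Figure D3:**
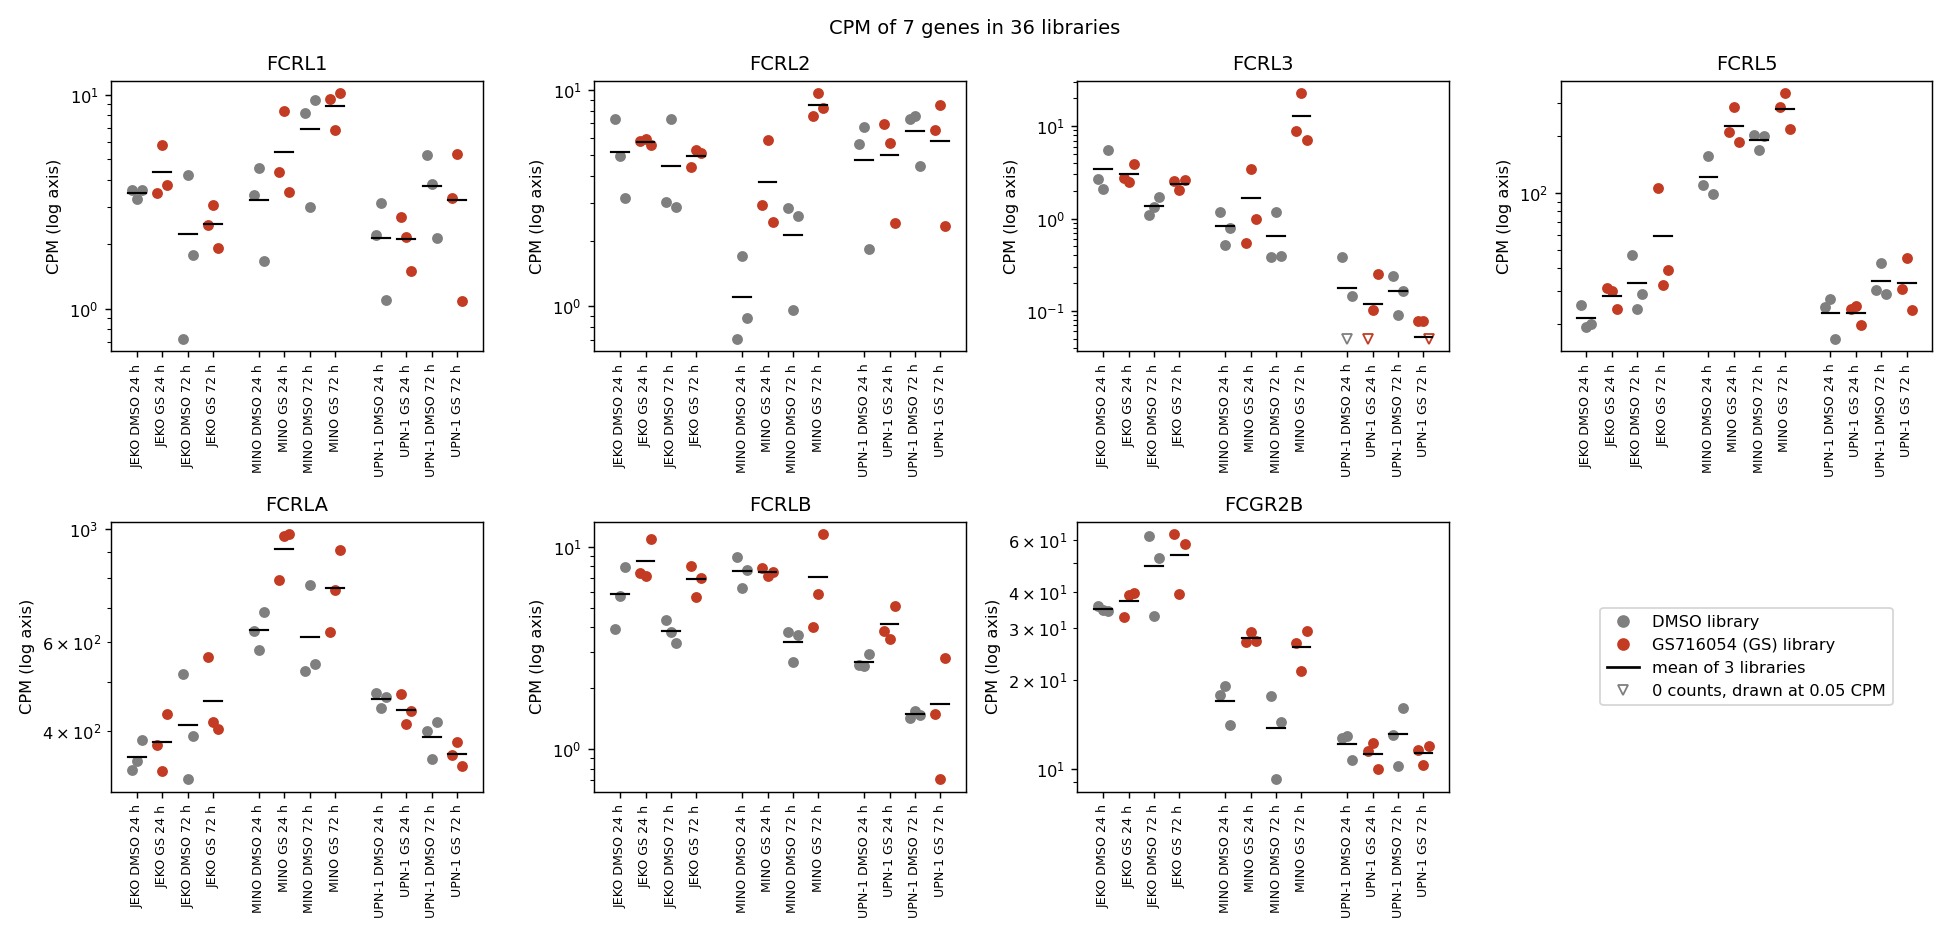
CPM (log axes, 1 panel per gene) in each of the 36 libraries by line, agent and time, with DMSO in grey, GS716054 (GS) in red, the mean of 3 libraries as a black line and libraries with 0 counts as open triangles at 0.05 CPM. FCRL3 reaches 7.01 to 22.7 CPM in the 3 MINO libraries with GS716054 at 72 h and lies below that in all other groups.

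GS716054 was set against DMSO within each line and time. The largest difference of any member was that of FCRL3, a receptor with both ITIM and ITAM-like motifs whose promoter sequence is given above, in MINO at 72 h. Its counts were 5, 11 and 6 in the DMSO libraries and 76, 250 and 74 in the treated ones, or 0.652 ± 0.456 against 12.9 ± 8.55 CPM (SD, n = 3 each). The treated libraries lay above the DMSO libraries, and same-numbered pairs differed 23.3-fold, 19.3-fold and 17.9-fold. The log2 fold change was 4.37 (SE 0.687).

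In all, 3 of 7 members were called higher in MINO at 72 h and none lower, where 5.56% of all 15028 genes were called. They are FCRL3, FCRL2 and FCGR2B, and since these values chose the members, nothing is read from the share. FCRL2, an inhibitory receptor of memory B cells, was 2.85, 0.964 and 2.61 CPM with DMSO and 7.54, 9.62 and 8.24 CPM with GS716054. All treated libraries were above the DMSO libraries, with a log2 fold change of 1.93 (SE 0.422). FCGR2B was 17.7, 9.21 and 14.4 CPM with DMSO and 26.7, 21.5 and 29.3 CPM with GS716054, a log2 fold change of 0.89 (SE 0.22). Its groups did not overlap either.

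FCRL3 was called without any 1 of the 6 libraries. FCRL2 lost its call without replicate 3 of either group (2.09 without the DMSO library, 1.93 without the treated one). FCGR2B lost it without DMSO replicates 2 (0.64) or 3 (0.92) and without treated replicates 1 (0.85) or 3 (0.77).

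The other members in MINO at 72 h had smaller differences. FCRLB was 3.77, 2.68 and 3.66 CPM with DMSO and 4.01, 5.81 and 11.6 CPM with GS716054, a log2 fold change of 1.06 (SE 0.332), or 0.50 without the third treated library and 1.33 without the first. FCRLB was not called in the fit of 12 libraries, but it was called with DESeq2, with no low-count filter, with all 36 libraries in a fit and without the first treated library. FCRL5 was 202, 170 and 200 CPM with DMSO and 286, 339 and 218 CPM with GS716054, a log2 fold change of 0.54 (SE 0.215). In both, the treated libraries were above the DMSO libraries, though GS716054 replicate 1 of FCRLB and replicate 3 of FCRL5 were close to them. FCRLA (0.30, SE 0.18) and FCRL1 (0.32, SE 0.438) overlapped between the groups, although FCRL1 was higher in each treated library than in the DMSO library of the same number (1.16-fold, 2.27-fold and 1.07-fold). Thus 5 of 7 members did not overlap and were higher, where 12.4% of all genes did so. With the replicate number as a replicate block within each time, 5 of 7 were called (FCRL5 and FCRLB added), where 20.2% of all genes were.

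At 24 h in MINO, 0 of 7 members were called by edgeR, where 2.39% of all genes were. DESeq2 called 2 (FCRL2 and FCRL5), and 4 members had an unadjusted p under 0.05. The same 4 were higher in every treated library than in any DMSO library, where 19.9% of all genes were, and the replicate block within time called them (4 of 7, where 15.8% of all genes were called). FCRL2 was 0.706, 1.71 and 0.881 CPM with DMSO and 2.94, 5.84 and 2.44 CPM with GS716054 (log2 fold change 1.70, SE 0.468). FCRL5 was 111, 157 and 99.3 CPM with DMSO and 212, 287 and 186 CPM with GS716054 (0.87, SE 0.216). In both genes replicate 2 was the highest of each group, and without the treated replicate 2 the value for FCRL2 was 1.21.

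FCGR2B was 17.8, 19.1 and 14.1 CPM with DMSO and 26.9, 29.2 and 27.2 CPM with GS716054 at 24 h (log2 fold change 0.68, SE 0.219). FCRLA, the most abundant member, was 629, 578 and 688 CPM with DMSO and 794, 968 and 978 CPM with GS716054 (0.50, SE 0.181). FCRL1 (0.72, SE 0.47), FCRL3 (1.01, SE 0.724) and FCRLB (-0.05, SE 0.32) overlapped between the groups, with FCRL1 1.27-fold, 1.84-fold and 2.1-fold higher within the same-numbered pairs. FCRL3 rested on 1 library at this time: GS716054 replicate 2 held 37 counts, and the other treated libraries held 5 and 11 counts, within the range of the DMSO libraries or next to it (6 to 10 counts). Without that library its log2 fold change was -0.08.

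**Figure D4:**
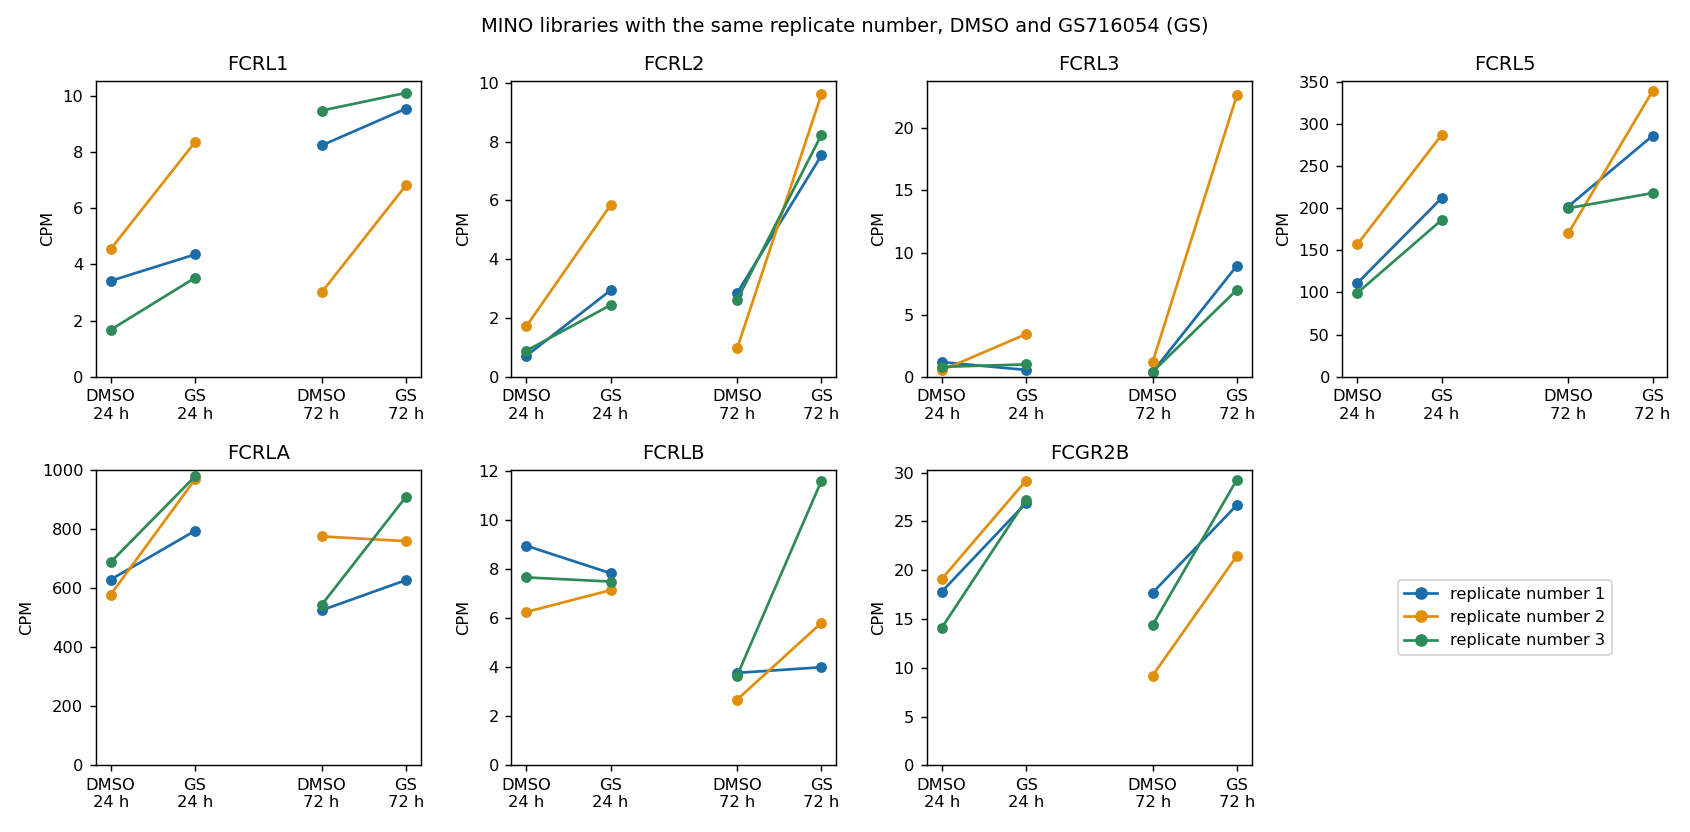
CPM of each gene in MINO libraries that share a replicate number (lines and colours), with DMSO and GS716054 (GS) at 24 h and 72 h. For FCRL1, FCRL2, FCRL5, FCRLA and FCGR2B all 3 lines go up at 24 h, and for every gene but FCRLA all 3 go up at 72 h, those of FCRL3 from at most 1.18 to at least 7.01 CPM.

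From 24 h to 72 h the effect in MINO differed most in FCRL3 (4.37 against 1.01, a difference of 3.35, SE 1.02), but 0 of 7 members were called for that difference with edgeR, where 0.0133% of all genes were. A total of 2 had an unadjusted p under 0.05 (FCRL3 and FCRLB), and DESeq2 called 0.

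JEKO members showed smaller differences. At 24 h, 0 of 7 were called by edgeR (0.018% of all genes) or DESeq2 and 0 had an unadjusted p under 0.05. At 72 h, 0 of 7 were called by either tool (0.3% of all genes), and 2 had an unadjusted p under 0.05. The replicate block within time called those 2, FCRL5 and FCRLB, where 3.34% of all genes were called. FCRLB was 4.34, 3.79 and 3.33 CPM with DMSO and 8.04, 5.64 and 7.02 CPM with GS716054 at 72 h (log2 fold change 0.85, SE 0.279). FCRL3 was 1.09, 1.34 and 1.70 CPM with DMSO and 2.53, 2.02 and 2.62 CPM with GS716054 (0.80, SE 0.392). These 2 of 7 members were higher without overlap, where 6.51% of all genes were.

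FCRL5 in JEKO at 72 h was 46.9, 24.1 and 29.0 CPM with DMSO and 106, 32.6 and 38.9 CPM with GS716054 (0.83, SE 0.361). Replicate 1 was the highest in both groups, and the pairs differed 2.27-fold, 1.35-fold and 1.34-fold. Without the treated replicate 1 the log2 fold change was 0.10. FCGR2B, highest in this line, was 62.0, 33.1 and 51.9 CPM with DMSO and 62.7, 39.1 and 58.0 CPM with GS716054 (0.12, SE 0.213), so the groups overlapped. FCRL1, FCRL2 and FCRLA had log2 fold changes of 0.16 (SE 0.46), 0.16 (SE 0.358) and 0.16 (SE 0.195).

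In UPN-1, 6 of the 7 members were tested, since FCRL3 fell under the count filter with 0 to 4 counts per library. None of the 6 was called by edgeR or DESeq2 or had an unadjusted p under 0.05 at 24 h (0.0262% of all genes called) or 72 h (0.334% of all genes called). At 24 h, FCRLB was 2.61, 2.57 and 2.93 CPM with DMSO and 3.83, 3.5 and 5.09 CPM with GS716054 (0.61, SE 0.361), the 1 member of 7 that was higher without overlap, where 7.82% of all genes were. The other log2 fold changes at 24 h lay between -0.12 and 0.09, and at 72 h all 6 lay between -0.21 and 0.19.

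**Figure D5:**
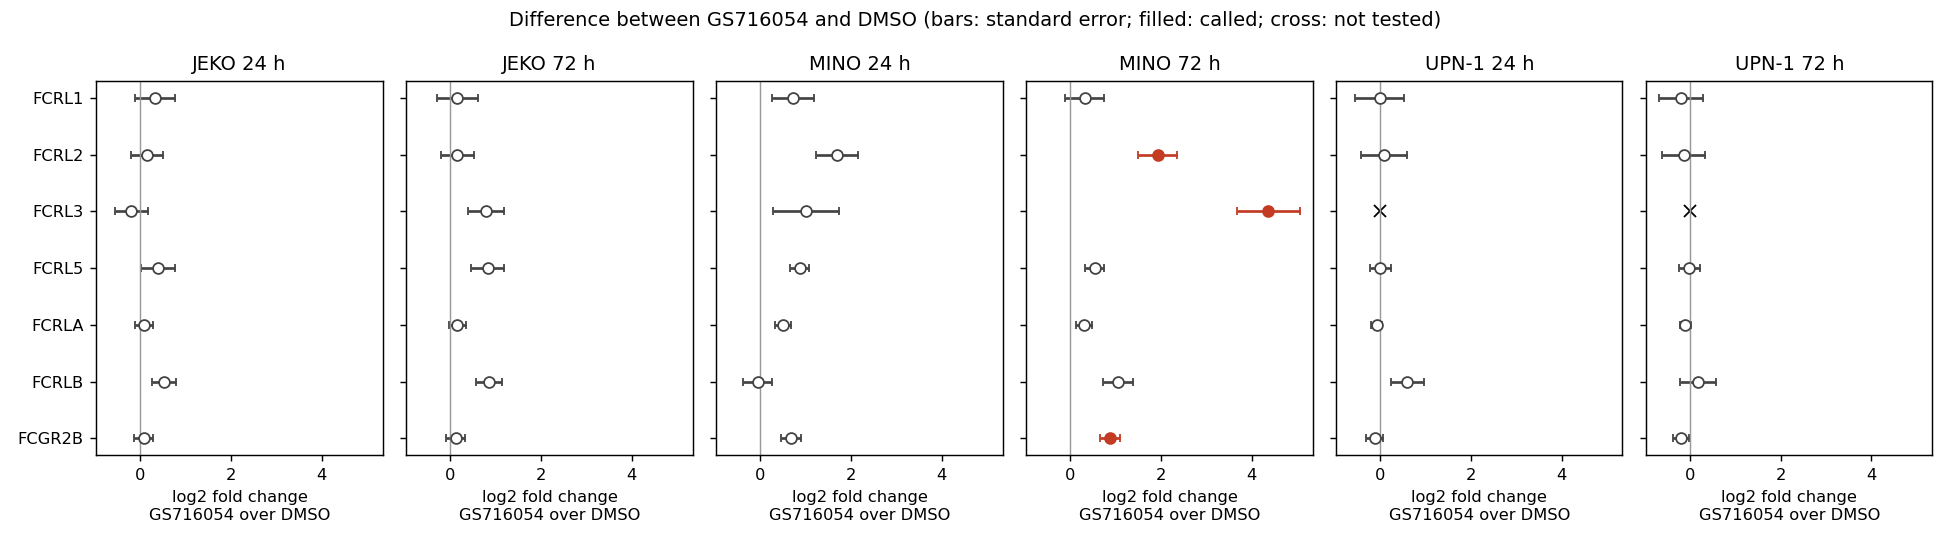
Log2 fold changes of GS716054 over DMSO for the 7 genes in each line and time (points, with standard errors as bars). Filled red points are those called by edgeR, which are FCRL2, FCRL3 and FCGR2B in MINO at 72 h, and crosses mark FCRL3 in UPN-1, which was not tested.

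The effects of the lines were set side by side in 1 fit of all 36 libraries, again on the values that chose the members, so its calls are a description. At 72 h, 1 of 7 members was called, FCRL3, where 1.01% of all genes were. In the separate fits of each line, FCRL3 had log2 fold changes of 4.37 (SE 0.687) in MINO and 0.80 (SE 0.392) in JEKO. UPN-1 held 6 counts of it in all with DMSO and 2 with GS716054 at that time. The call of FCRL3 in the fit of 36 libraries was lost without MINO DMSO replicate 1 or 3 of 72 h. At 24 h, 0 of 7 members were called by edgeR, where 0.106% of all genes were, 2 had an unadjusted p under 0.05, and DESeq2 was not run for this test.

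Over the 12 groups, MINO with GS716054 at 72 h had the highest mean of FCRL1, FCRL2, FCRL3 and FCRL5, the same line at 24 h that of FCRLA, and JEKO with GS716054 had those of FCRLB (24 h) and FCGR2B (72 h). Most neighbours in the order of group means overlapped. Of 11 neighbouring pairs, none was without overlap for FCRL1, FCRL2 and FCRLB, 1 for FCRL3, FCRL5 and FCRLA, and 2 for FCGR2B. For FCRL3 that pair was the highest group, MINO with GS716054 at 72 h, and the next, JEKO DMSO at 24 h.

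As a description over 12 group means that share lines and libraries, log2 CPM of FCRL5 and FCRLA had a Pearson r of 0.914, FCRL3 and FCGR2B 0.775, FCRL1 and FCRL5 0.763, and FCRL2 and FCRLA -0.323. Among 14426 other genes, those most like FCRL3 were ZNF804A (r = 0.964), SKOR1 (0.949) and APLF (0.941). Those most like FCRL5 were ARHGAP44 (0.992), SUMF2 (0.991) and DLGAP4-AS1 (0.986), and those most like FCGR2B were SNPH (0.972), ENSG00000226751 (0.971) and MAP1LC3B (0.966).

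The genes that share reads or position with members were read beside them. The antisense gene ENSG00000227217 of FCRL3 held 7 counts in the 3 MINO DMSO libraries at 72 h and 54 in the treated ones, and ENSG00000234211 of FCGR2B was 2.99 ± 1.60 and 5.00 ± 0.961 CPM (SD, n = 3 each). Since the strand setting of the counting was not given, reads of either partner cannot be told apart where exons overlap. FCGR2C, the near-copy of FCGR2B, was 0.455 ± 0.314 CPM with DMSO and 1.31 ± 0.915 CPM with GS716054 in the same groups (SD, n = 3 each). Of 10 other protein-coding genes that start within 250 kb of a member, 4 or 5 were tested in each of the 6 comparisons and none was called, with adjusted p-values in MINO of at least 0.17 by edgeR. All tested neighbours lie by the cluster of FCGR2B, FCRLA and FCRLB. Those of the other cluster (FCRL4, CD5L and KIRREL1) were not tested in any line, so the surroundings of FCRL2 and FCRL3 were not examined. ATF6, a neighbour beyond FCRLB and DUSP12, differed by 0.02 (SE 0.119) in MINO at 72 h.

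Of 16 other Fc receptor genes, a list drawn up with earlier results of these libraries known, 6 were tested in MINO. Of all genes, 2.39% were called in MINO at 24 h and 5.56% at 72 h. FCRL4 and FCRL6, the remaining FCRL genes, were at or near 0 in every group (FCRL4 at a mean of at most 0.157 CPM). PIGR, the transporter of polymeric IgA and IgM, rose at 24 h in MINO by 2.54 on the log2 scale (SE 0.442, edgeR adjusted p 0.0146), its means being 26.8 ± 4.55 CPM with DMSO and 160 ± 53.4 CPM with GS716054 (SD, n = 3 each). At 72 h PIGR (1.60, SE 0.424, edgeR adjusted p 0.0443) and FCER2, the low-affinity IgE receptor CD23 (1.18, SE 0.315, edgeR adjusted p 0.0461), rose. The list's median log2 fold change over its tested genes was 1.03 at both times, against 0.01 and -0.03 over all genes tested. One of the tested genes, FCGR2C, had DMSO means of 0.368 CPM (24 h) and 0.455 CPM (72 h). It passed the count filter only through treated libraries, so nothing is read from the median. Of the 6 libraries compared, leaving out any 1 of 4 ended the PIGR call at each time and any 1 of 5 the FCER2 call, whose value was 0.64 without treated replicate 3 (edgeR adjusted p 0.184).

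Among 12 other ITIM-bearing receptors of B cells, a list drawn up with earlier results of these libraries known, 3 of 10 tested rose in MINO at 24 h and none fell, where 2.39% of all genes were called. They were CEACAM1 (1.70, SE 0.314, edgeR adjusted p 0.0187), CD22 (1.06, SE 0.212, edgeR adjusted p 0.0255), a sialic acid-binding inhibitor of the B-cell receptor, and LAIR1 (1.03, SE 0.15, edgeR adjusted p 0.00593), a collagen receptor. At 72 h 4 of 10 rose, where 5.56% of all genes were called: PECAM1 from 3.22 ± 0.564 to 15 ± 5.28 CPM (SD, n = 3 each, 2.19, SE 0.324, edgeR adjusted p 0.00254), CEACAM1 (1.58, SE 0.30, edgeR adjusted p 0.00988), SIGLEC10 (0.69, SE 0.174, edgeR adjusted p 0.0357) and LAIR1 (0.64, SE 0.149, edgeR adjusted p 0.0265). The median over the tested genes was 0.59 at 24 h and 0.40 at 72 h. CEACAM1 and PECAM1 at 72 h were called without any 1 of the 6 libraries, while the calls of CD22, CEACAM1 and LAIR1 at 24 h and of SIGLEC10 and LAIR1 at 72 h were each lost without at least 1 library, MINO DMSO replicate 2 of 24 h in all 3 genes at that time and DMSO replicate 3 of 72 h in both at that time. In JEKO at 72 h 1 of 10 rose, where 0.3% of all genes were called: SIGLEC10 (0.75, SE 0.135, edgeR adjusted p 0.0299), a call lost without any 1 of 5 libraries. In UPN-1 none of 9 was called at either time.

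A list of 15 proteins recruited by ITIM or ITAM tails was also drawn up with earlier results of these libraries known. Of these, 1 rose in MINO at each time, where 2.39% (24 h) and 5.56% (72 h) of all genes were called. It was LYN, the Src-family kinase that phosphorylates these motifs, at 327 ± 37.6 CPM with DMSO and 564 ± 56.0 CPM with GS716054 at 24 h (SD, n = 3 each). It rose by 0.76 on the log2 scale at 24 h (SE 0.133, edgeR adjusted p 0.0155) and by 0.55 at 72 h (SE 0.133, edgeR adjusted p 0.0297), and leaving out any 1 of 5 libraries at 24 h or of 4 at 72 h ended the call. The median of the 15 was 0.26 and 0.02, and none was called in JEKO or UPN-1.

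FCRL3 and FCRL5 are markers of atypical memory B cells, and 10 of 11 other genes used to tell those cells apart were tested in MINO. The list mixes genes that are high in them, such as TBX21 and ITGAX, with CD27 and CR2, which are low in them. It too was drawn up with earlier results of these libraries known, and 5.56% of all genes were called in MINO at 72 h. At 72 h the chemokine receptor CXCR3 (3.03, SE 0.413, edgeR adjusted p 0.00174) rose and ZBTB32 fell (-1.09, SE 0.176, edgeR adjusted p 0.0042). ITGAX, which encodes CD11c, was also called higher (3.99, SE 0.944). ITGAX stayed low, at 0.186 ± 0.22 and 2.79 ± 1.68 CPM (SD, n = 3 each), and its call was lost without DMSO replicates 1 (3.39) or 3 (3.80) or GS716054 replicate 2 (3.37). At so low a DMSO level it passed the count filter only through treated libraries, so its call is a description. At 72 h TBX21 (0.14, SE 0.30), ZEB2 (-0.44, SE 0.273), CD86 (-0.45, SE 0.168), CD27 (1.56, SE 0.517) and CR2 (0.76, SE 0.59) did not pass the test. Nor did FGR (1.69, SE 0.501). The median of the 10 was 0.47, with ITGAX included and the low markers counted as measured. In JEKO at 72 h 1 of 8 rose, where 0.3% of all genes were called: the kinase gene FGR (1.51, SE 0.22, edgeR adjusted p 0.011, or 0.0602 without DMSO replicate 3). In UPN-1 none of 6 was called.

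Markers of cell types moved with the MINO groups as well. The summed level of 8 B-cell markers, CD22 among them, was 2880 to 3560 CPM with DMSO and 5160 to 5510 CPM with GS716054 at 24 h, and 2770 to 3340 and 4500 to 5380 CPM at 72 h. That of 5 myeloid markers was 1.54 to 3.06 CPM (DMSO) and 5.66 to 8.57 CPM (GS716054) at 24 h. It was 0.538 to 1.24 CPM and 1.77 to 4.17 CPM at 72 h, with FCN1 at 0 throughout. Those of 5 T-cell markers were 1.82 to 3.31 and 1.71 to 3.36 CPM at 72 h, with CD3D, CD3G and CD2 at 0 in both groups. NK cell markers summed to 0.817 CPM or less there, with NCAM1 and KLRD1 at 0. The sum of 4 plasma-cell markers was 120 to 135 CPM with DMSO and 98.1 to 124 CPM with GS716054 at 24 h, and 159 to 412 and 100 to 159 CPM at 72 h, where XBP1 was 144 ± 89 and 72 ± 25 CPM (SD, n = 3 each). The part of the B-cell, myeloid and plasma-cell markers in the members' differences was not tested, and in RNA from whole cultures more cells that express a gene and more RNA per cell cannot be told apart.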

How the data were processed

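The authors deposited 1 table of whole-number read counts per gene for each of 36 libraries, with 58302 Ensembl gene IDs and 5 summary lines. HISAT2 2.2.1, HTSeq 0.13.5 and build GRCh38 are named in the submitters' processing notes. The annotation release and strand setting are not given in the sources used here. Summary lines held 55.1% to 59.3% of reads per library and were left out. No table held columns of other samples.

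The 7 members, the lists and the motifs were chosen with earlier results of these data known. Symbols and positions came from GENCODE v44 (57532 of 58302 IDs named). Promoter windows of RefSeq (GRCh38.p14) matched 7 of 7 members.

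The deposited counts went into edgeR 4.0.16 under R 4.3.3 (TMM scaling, filterByExpr with a minimum count of 10 and total of 15, quasi-likelihood test). For treatment and time, 12 libraries of a line were fitted with 1 coefficient per group, leaving 8 residual degrees of freedom and 16690 (JEKO), 15028 (MINO) and 15248 (UPN-1) genes. Lines were compared in 1 fit of 36 libraries (17980 genes). "Called" means that the p-value, after Benjamini-Hochberg adjustment across every gene of the fit, was below 0.05. Standard errors (SE) are the absolute log2 fold change over the square root of F. CPM, a level, is on the TMM scale of the 36-library fit. The fit code was also run on simulated counts with known changes. Those counts held no pairing of replicates, and nothing is read from that run.

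Named genes were all members, called genes of 4 fixed lists (at most 4 per list and comparison), protein-coding neighbours within 250 kb, and the 3 genes most like FCRL3, FCRL5 and FCGR2B. A result for 1 listed gene is not reported here. Alternatives were DESeq2 1.42.0, its size factors in edgeR, no or a stricter filter (minimum count 50), other sets of libraries, the replicate number as a block, and leaving out each library.

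The replicate numbers come from the labels. Within a time, deviations of same-numbered treated and DMSO libraries from their group means correlated at 0.107 to 0.593 in 5 of 6 comparisons and at 0.0552 to 0.213 in JEKO at 24 h. Between 24 h and 72 h DMSO libraries the correlation was -0.0655 to 0.169. By a threshold of 0.1 in every pair, the numbers pair libraries within a time, except in JEKO at 24 h, but not across times, and a replicate block within time, which leaves 4 residual degrees of freedom, was added after this check.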

Additional observations from a re-analysis of the deposited data

Results flagged for a closer look

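The effect of GS716054 at 72 h differed among the 3 lines in 2 genes of the lists named beside the members. The test was edgeR's F test over 36 libraries, which called 1.01% of all 17980 genes. The lists were drawn up with earlier results of these libraries known, so the p-values describe these libraries only. For PECAM1 the adjusted p was 0.000474: it was 3.22 ± 0.564 and 15 ± 5.28 CPM (DMSO and GS716054, SD, n = 3 each) in MINO, 23.2 ± 3.67 and 20.1 ± 3.88 CPM in JEKO, and 13.3 ± 2.19 and 10.2 ± 4.07 CPM in UPN-1. For CD86, a costimulatory ligand, edgeR's adjusted p was 0.0168: it was 39.1 ± 10.4 and 28.7 ± 2.24 CPM in MINO, 26.8 ± 4.56 and 42.0 ± 0.75 CPM in JEKO, and 9.62 ± 0.731 and 13.8 ± 2.17 CPM in UPN-1, and it was called in none of the lines alone at 72 h.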

How the results depend on the processing

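The members called under the main design and under other settings were as follows, by edgeR unless DESeq2 is named. In MINO at 24 h the count was 0, and it was 3 with no low-count filter, 1 with the replicate block over both times, 4 with the replicate block within time (an alternative chosen after seeing the data), 2 with DESeq2, 4 with the 6 libraries compared alone and 1 with all 36 libraries in a fit. In MINO at 72 h it was 3, and it was 5 with the replicate block within time, 4 with DESeq2, with no low-count filter and with all 36 libraries in a fit (FCRLB added in each), and 1 with the 6 libraries compared alone. In JEKO at 72 h it was 0, and it was 1 with no low-count filter and 2 with the replicate block within time. For DMSO 72 h against 24 h it was 1 in JEKO (3 with no low-count filter, 0 with the stricter filter, under which FCRL3 was not tested, and 0 with all 36 libraries), 0 in MINO (3 with no low-count filter, 2 with the replicate block, 1 with DESeq2 and 1 with all 36 libraries) and 0 in UPN-1 (1 with no low-count filter and 1 with the replicate block). For the effect at 72 h minus that at 24 h in MINO it was 0, and 1 with no low-count filter. For the effect among lines at 72 h it was 1, and 3 with no low-count filter. Shares of all genes are given above for the main fits and the replicate block within time. Counts under the other settings, here and below, stand without such a share. Nothing particular to the members is read from them. The causes were not tested.

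Leaving out 1 library at a time gave 1 to 3 members in MINO at 72 h, 0 to 2 in JEKO DMSO over time, 0 to 2 for the effect among lines at 72 h, 5 to 6 for MINO against JEKO and 5 to 7 for UPN-1 against MINO, and the main count otherwise. The replicate block changed no call of the other comparisons except FCRL1, which passed in MINO against JEKO (0.81, edgeR adjusted p 0.0321) and UPN-1 against MINO (-0.81, edgeR adjusted p 0.0367). The replicate numbers did not pair libraries across times, and whether they pair libraries of different lines was not checked. Nothing is read from calls added by the block over times or lines. Of 1611 alternative log2 fold changes of members and called list genes, none turned a called direction, 78 lost a call and 51 gained one. The effect among lines was not run in DESeq2. Depth limits FCRL3 in UPN-1 (0 to 4 counts) and in MINO DMSO (5 to 11 counts).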
